A study of Homo sapiens with 6 samples.

Results

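HOX cluster genes were followed in LX-2, a cell line that derives from hepatic stellate cells of the human liver, after addition of the growth factor BMP9. Members were the probe sets that the array's annotation gives to exactly 1 gene whose symbol is HOXA, HOXB, HOXC or HOXD plus digits. This gave 47 probe sets of 27 genes, out of 44988 single-gene probe sets of 18132 genes on the array. The 27 were HOXA2; HOXB1 to HOXB9 and HOXB13; HOXC4, HOXC5, HOXC6 and HOXC8 to HOXC13; and HOXD1, HOXD4, HOXD8, HOXD9, HOXD10, HOXD12 and HOXD13. HOXA2 is thus the sole HOXA gene analysed here. In the BMP9 group, 3 samples of LX-2 received 50 ng/ml recombinant human BMP9 for 24 h, and in the control group 3 samples received 0 ng/ml for the same time. Both groups had first been kept without serum for 12 h. All samples are of 1 cell line, each was measured on 1 array, and the labels call the samples of a group biological replicates without naming separate cultures, so the p-values below refer to the spread among these samples alone.

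HOX genes encode homeodomain transcription factors that lie in 4 clusters, and their order along a cluster follows the order in which they are switched on and the body position they specify, from head to tail. Low-numbered (anterior) genes pattern the hindbrain and neck, middle (central) genes the trunk, and high-numbered (posterior) genes the lumbar region, genitalia and limb ends. Adult fibroblasts and other connective tissue cells keep part of the HOX pattern of the body site they came from. HOX proteins bind DNA together with TALE homeodomain partners of the PBX and MEIS families. Polycomb complexes keep HOX clusters silent, and trithorax complexes and retinoic acid receptors act in their activation. BMP9 is a liver-made ligand of the TGF-beta family whose receptors activate SMAD1, SMAD5 and SMAD9, and the HOX protein HOXC8 was described as a SMAD1 partner in BMP signalling.

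None of the 27 HOX genes analysed here passed the test between BMP9 and control. In limma on the deposited log2 RMA values, with each gene read by its brightest probe set and p-values adjusted over all 18132 genes, 0 of 27 HOX genes were higher and 0 were lower at an adjusted p under 0.05. Across all genes 0.232% were higher and 0.452% were lower by this rule. At an unadjusted p under 0.05, 3 HOX genes were higher, where 6.89% of all genes were, and 2 were lower, where 5.98% were. Tested one by one over all 44988 probe sets, 0 of 47 HOX probe sets were higher (0.133% of all) and 0 were lower (0.302% of all), and at an unadjusted p under 0.05 4 were higher (5.7% of all) and 1 was lower (5.67% of all).

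The HOX differences were small in either direction. The log2 difference, BMP9 minus control, ran from -0.29 for HOXD4 to 0.43 for HOXA2, with a median of 0.035 over the 27 genes and 0.014 over all genes. Its median size without regard to sign was 0.10 for HOX genes and 0.084 for all genes, and the 90th percentile of that size was 0.28 and 0.23. The difference was positive for 18 HOX genes and negative for 9, so 66.7% were positive against 54.7% of all genes. The 95% intervals of all 27 differences lay inside a 2-fold change either way, and 26 lay inside a 1.5-fold change, HOXA2 being the exception with an upper bound of 0.62. Most genes on the array did likewise, 18090 of 18132 for the 2-fold and 17722 for the 1.5-fold change. These intervals bound the signal of a probe set, and for a probe set near background they say little about its transcript. The mean log2 value over the 27 genes was 4.54, 4.51 and 4.53 on the BMP9 arrays and 4.48, 4.49 and 4.49 on the control arrays, so the groups did not overlap, and neither did they for the mean over all 18132 genes, at 4.532, 4.538 and 4.538 against 4.526, 4.531 and 4.526.

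**Figure D1:**
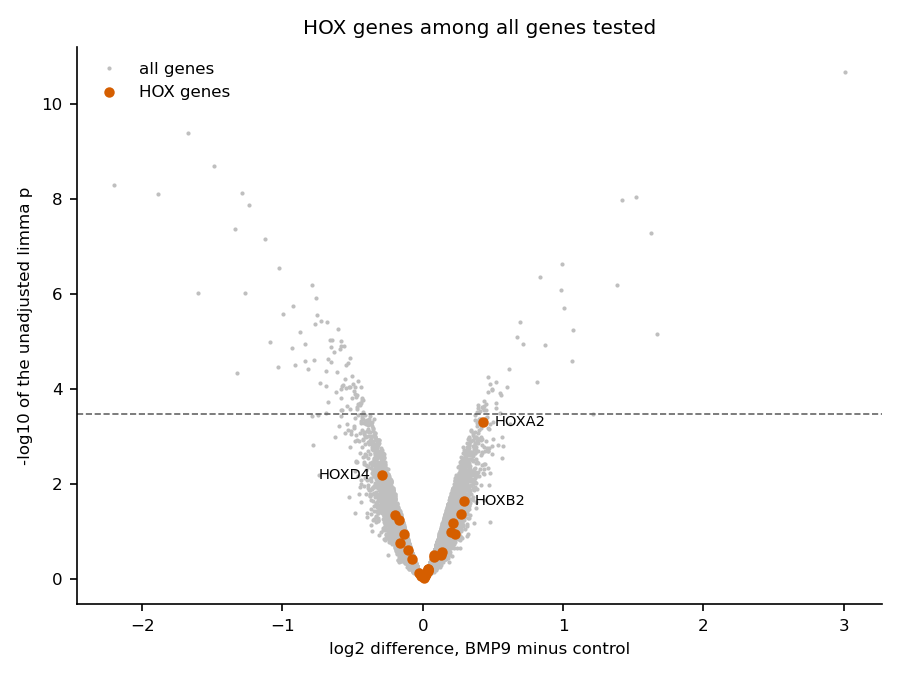
Each point is a gene, with its log2 difference, BMP9 minus control, on the horizontal axis and the negative log10 of its unadjusted limma p on the vertical axis. Grey points are all 18132 genes, orange points are the 27 HOX genes, and the dashed line marks the largest p that passed an adjusted p under 0.05. All HOX genes lie under the line, HOXA2 closest to it at a difference of 0.43.

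The arrays' own spike-in controls also differed between the groups. The 18 hybridisation control probe sets averaged 10.04, 9.87 and 9.94 on the BMP9 arrays and 10.16, 10.12 and 10.2 on the control arrays. The 24 poly-A control probe sets averaged 5.83, 5.62 and 5.39 on the BMP9 arrays and 6.09, 6.22 and 6.13 on the control arrays. Both sets were thus lower on every BMP9 array. With arrays scaled to the hybridisation controls, the median difference of all genes moved to 0.23 and that of the HOX genes to 0.25, and 8 HOX genes were called higher, where 26.7% of all genes were. With the poly-A controls the medians were 0.55 and 0.57, and 26 HOX genes were called higher, where 93.2% of all genes were. Over all genes the calls split into 4843 higher and 72 lower with the hybridisation controls and 16893 higher and 19 lower with the poly-A controls, against 42 higher and 82 lower on the deposited scale. The number of positive HOX differences was 26 of 27 and 27 of 27 under these scalings, so most negative signs given below hold on the deposited scale, relative to the other genes. Which scale is right was not tested.

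HOXA2, which in mice gives the second pharyngeal arch and the anterior hindbrain their identity, had the smallest p of the 27 HOX genes. Its brightest probe set read 6.17, 6.14 and 6.06 on the BMP9 arrays and 5.54, 5.73 and 5.79 on the control arrays. All BMP9 values were above all control values. The log2 difference was 0.43 (SE 0.086, 1.35-fold), with means of 6.12 ± 0.057 and 5.69 ± 0.13 (SD, n = 3 each), and its limma adjusted p of 0.0599 missed the threshold. It ranked 150 by p among the 18132 genes. A second HOXA2 probe set read 3.68 on each of the BMP9 arrays and 3.22, 3.44 and 3.11 on the control arrays, a difference of 0.42 (SE 0.094), for which limma gave an adjusted p of 0.107 among all probe sets. That probe set averaged 3.47 over the 6 arrays, under the olfactory receptor median of 3.67 described below. The call depended on the fit: HOXA2 passed in 5 of 16 alternatives, with limma adjusted p = 0.0107 among genes with a mean log2 value of at least 5, 0.0316 with the mean of its probe sets, 0.0164 with an intensity trend and robust prior, and 0.00309 and 2.80e-06 with the hybridisation and poly-A scalings. Leaving out each array in turn gave adjusted p-values between 0.0832 and 0.194. RNA came from whole cultures, in which a change in the number of expressing cells and in RNA per cell cannot be told apart.

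Only HOXA2 and HOXB2 had BMP9 arrays wholly above the control arrays, which makes 2 of 27 where 10.3% of all genes were placed so. HOXB3, HOXB7, HOXD4 and HOXD12 lay wholly below, 4 of 27 where 8.49% of all genes did. Among the 47 probe sets these counts were 3 above (9.07% of all) and 5 below (8.22% of all). The 5 genes other than HOXA2 fell outside the naming rule and were picked after their values were seen. All 5 lay under the olfactory receptor 95th percentile of 5.48 described below. Their mean log2 values over all arrays were 4.63 for HOXD4, 4.59 for HOXB3, 3.84 for HOXB2, 2.89 for HOXB7 and 2.16 for HOXD12. HOXB7 and HOXD12 also lay under the olfactory receptor median of 3.67. For probe sets near background, such differences say little about the transcript. HOXD4, a neck-level patterning gene in mice, had the largest negative difference of the 27: it read 4.41, 4.59 and 4.44 on the BMP9 arrays and 4.80, 4.66 and 4.87 on the control arrays, a difference of -0.29 (SE 0.086, limma adjusted p = 0.195). HOXD4 has 1 probe set here, and its difference turned to 0.24 with the poly-A scaling. HOXB2, a hindbrain gene, read 4.20, 3.88 and 3.88 on the BMP9 arrays and 3.71, 3.83 and 3.54 on the control arrays, a difference of 0.29 (limma adjusted p = 0.303). The gap between the lowest BMP9 array and the highest control array was narrower than the spread within either group. HOXB3 differed by -0.17, HOXB7 by -0.13 and HOXD12, a digit patterning gene, by -0.20, each of which was positive under the hybridisation and the poly-A scalings. HOXB8 differed by 0.27 with an unadjusted limma p of 0.0437, and its groups overlapped.

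**Figure D2:**
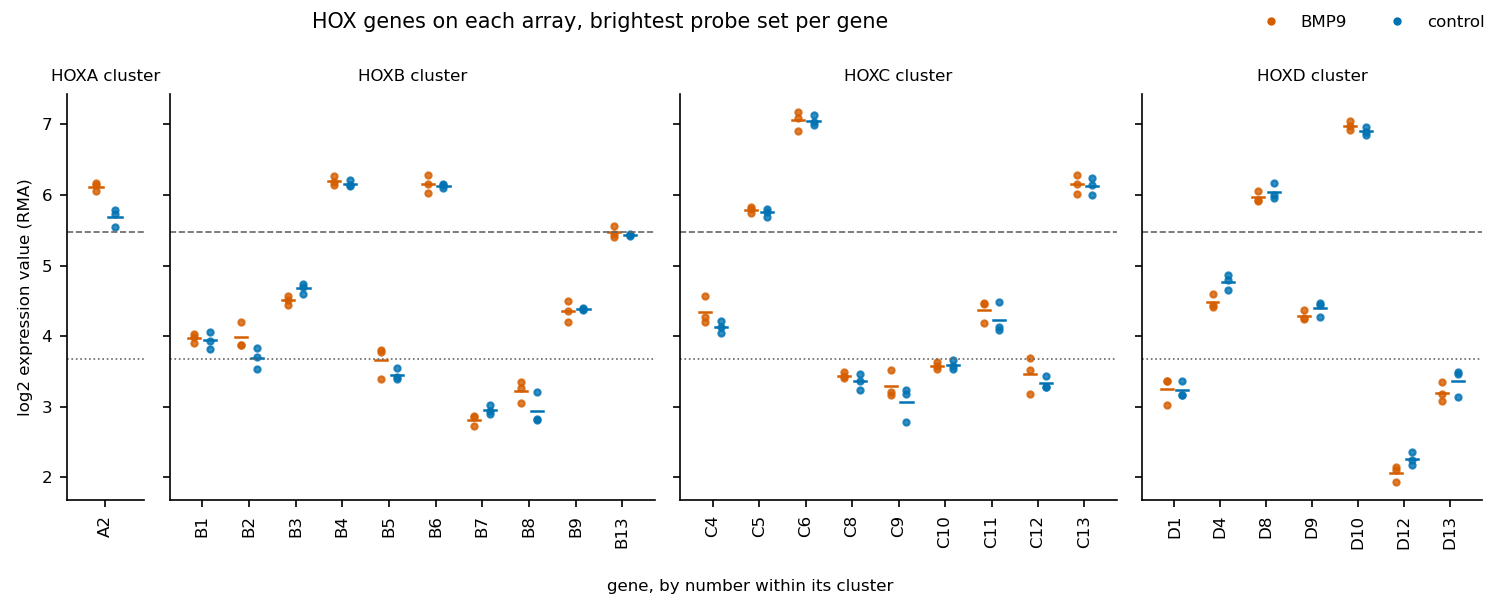
Points are single arrays and short bars are group means of the log2 expression value (vertical axis) for the brightest probe set of each of the 27 HOX genes, ordered by number within each cluster, with BMP9 left of control. The dashed line is the 95th percentile and the dotted line the median of olfactory receptor probe sets, at 5.48 and 3.67. The 2 groups of points lie close together for most genes and are fully apart for HOXA2, HOXB2, HOXB3, HOXB7, HOXD4 and HOXD12.

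The sequence before the start is shown for the genes with the largest positive and negative difference, and for a pair that shares 1 start region. The RefSeq promoter table of build GRCh38.p14, with windows from 250 bases before to 50 after a gene's start, held 10 of the 27 genes, and since HOXC4 and HOXC5 share a window there were 9 distinct ones. Shown 5′ to 3′ are the 250 bases before the start of HOXA2 (chr7:27102684-27102933, minus strand), HOXD4 (chr2:176151300-176151549, plus strand) and HOXC4 with HOXC5 (chr12:54016638-54016887, plus strand). Capitals mark matches on either strand to CAGAC (the SMAD box), GGCGCC (a GC-rich element described for SMAD1/5), TGACAG (the core of MEIS and PREP sites) and TGATTNAT (a composite PBX-HOX element).
HOXA2: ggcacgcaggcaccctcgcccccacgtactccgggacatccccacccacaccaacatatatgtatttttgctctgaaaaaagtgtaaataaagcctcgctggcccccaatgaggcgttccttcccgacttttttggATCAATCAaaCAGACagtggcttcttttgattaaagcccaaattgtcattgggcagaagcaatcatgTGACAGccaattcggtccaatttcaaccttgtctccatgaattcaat
HOXD4: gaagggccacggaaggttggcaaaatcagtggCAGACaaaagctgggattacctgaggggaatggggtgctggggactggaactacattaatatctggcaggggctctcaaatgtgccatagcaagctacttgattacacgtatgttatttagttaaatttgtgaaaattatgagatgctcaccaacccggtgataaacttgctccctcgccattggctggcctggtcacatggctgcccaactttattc
HOXC4 and HOXC5: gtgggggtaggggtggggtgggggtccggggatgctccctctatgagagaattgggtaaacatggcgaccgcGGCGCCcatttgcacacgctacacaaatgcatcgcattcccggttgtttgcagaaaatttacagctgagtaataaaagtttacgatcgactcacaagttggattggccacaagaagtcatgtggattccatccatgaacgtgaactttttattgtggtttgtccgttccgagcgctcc
In HOXA2, whose difference was 0.43, the PBX-HOX element began 114 bases before the start, CAGAC 104 bases and TGACAG 47 bases before it, with no overlap between them. In HOXD4, whose difference was -0.29, CAGAC began 218 bases before the start, and a TGACAG began at base 4 after it, outside the printed stretch. The window of HOXC4 and HOXC5, whose differences were 0.21 and 0.035, held GGCGCC 178 bases before the start. Of the 9 HOX windows, 3 held CAGAC, 2 held TGACAG, 1 held TGATTNAT and 1 held GGCGCC. The shares among all 34943 windows of this length were 45.3%, 15.8%, 2.82% and 19.2% in the same order. The windows of HOXB1, HOXD1, HOXD8, HOXD10 and HOXD13 had no match. G and C made up 46.3% (HOXA2) to 74.3% (HOXD1) of a HOX window, with a median of 58.0% against 58.7% over all windows. A match is a string of letters and shows no binding.

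The deposited table has no detection calls, so levels were set beside probe sets of olfactory receptors, the odour-sensing proteins of the nose. The 359 probe sets of 333 olfactory receptor genes had a median log2 value of 3.67 and a 95th percentile of 5.48. Under the olfactory median lay 10 of the 27 HOX genes by brightest probe set, and 6146 of all 18132 genes. Above the 95th percentile lay 8 HOX genes, or 29.6%, against 26.7% of all genes and 5.11% of olfactory receptor genes. The 8 were HOXA2, HOXB4, HOXB6, HOXC5, HOXC6, HOXC13, HOXD8 and HOXD10. Being above the line does not show expression: the array's 23 background control sets, which match no transcript, read 1.67 for probes with 3 G or C bases, 5.23 for 20, 6.16 for 21 and 10.0 for 25. The G and C content of the HOX probes was not used here.

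**Figure D3:**
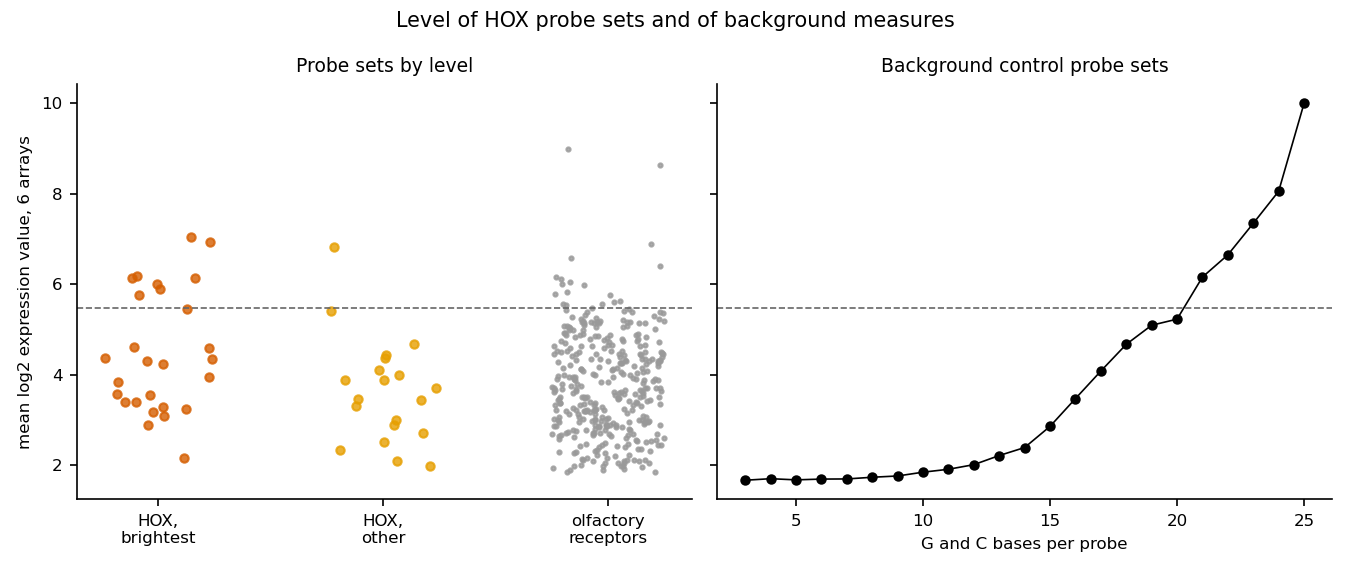
Left, mean log2 value over the 6 arrays (vertical axis) of the brightest probe sets of the 27 HOX genes, the other HOX probe sets and the 359 olfactory receptor probe sets, spread sideways for legibility. Right, the same value for the 23 background control probe sets against the number of G and C bases per probe, climbing past the dashed line (5.48, the olfactory 95th percentile) between 20 and 21.

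The 7 HOX genes above the line other than HOXA2 did not pass, with differences between -0.076 and 0.078, 95% intervals inside -0.26 to 0.24 and limma adjusted p-values from 0.708 to 0.985. The groups overlapped in each of them. HOXC6, a thoracic-level gene, read 7.18, 6.91 and 7.10 on the BMP9 arrays and 7.03, 6.99 and 7.14 on the control arrays. HOXD10, which patterns the hindlimb and its motor neurons in mice, read 7.05, 6.92 and 6.97 on the BMP9 arrays and 6.89, 6.85 and 6.96 on the control arrays, a difference of 0.078. The spans of the BMP9 and control arrays crossed in both genes. HOXB4, known for expanding blood stem cells when overproduced, read 6.14, 6.18 and 6.27 on the BMP9 arrays and 6.21, 6.14 and 6.12 on the control arrays. HOXB6 read 6.29, 6.16 and 6.02 on the BMP9 arrays and 6.10, 6.15 and 6.16 on the control arrays. The difference was 0.038 for HOXB4 and 0.023 for HOXB6, less than the SD of either gene's BMP9 arrays. HOXC13, which acts in hair and nail formation, read 6.01, 6.15 and 6.28 on the BMP9 arrays and 6.25, 6.15 and 6.001 on the control arrays. HOXC5 read 5.83, 5.80 and 5.75 on the BMP9 arrays and 5.69, 5.81 and 5.77 on the control arrays. HOXD8 read 5.93, 5.91 and 6.05 on the BMP9 arrays and 6.17, 6.001 and 5.96 on the control arrays, the sole negative difference among the 7 at -0.076, which was positive at 0.14 and 0.46 under the hybridisation and poly-A scalings.

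By cluster, the 10 HOXB genes had 7 positive and 3 negative differences with a median of 0.036, the 9 HOXC genes 8 positive and 1 negative with a median of 0.081, and the 7 HOXD genes 2 positive and 5 negative with a median of -0.10. The HOXC genes ran from -0.012 (HOXC10) to 0.23 (HOXC9), and the HOXD genes from -0.29 (HOXD4) to 0.078 (HOXD10). HOXC8, the described SMAD1 partner, read 3.41, 3.43 and 3.49 on the BMP9 arrays and 3.47, 3.37 and 3.25 on the control arrays, a difference of 0.081 (limma adjusted p = 0.721). The mean log2 value of HOXC8 was 3.40, under the olfactory receptor median of 3.67. Those of HOXC9 (3.19), HOXC10 (3.58) and HOXD13 (3.28) also lay under it, where differences say little about the transcript. Genes of 1 cluster lie side by side and are not independent, and the difference between clusters was not tested. By position, the 8 anterior genes (numbers 1 to 4) had 6 positive and 2 negative differences with a median of 0.036. The 8 central genes (5 to 8) also had 6 positive and 2 negative, with a median of 0.029, and the 11 posterior genes (9 to 13) had 6 positive and 5 negative, with a median of 0.019. Posterior genes of limb ends and genitalia included HOXD13, at 3.35, 3.08 and 3.18 on the BMP9 arrays and 3.14, 3.46 and 3.50 on the control arrays, and HOXB13, a prostate gene, whose brightest probe set differed by 0.037.

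Of the 27 genes, 14 had 1 probe set and 13 had from 2 to 4. In 10 of these 13, or 76.9%, the differences of the probe sets had both signs, against 65.8% of the 11734 genes on the array with several. Many of these differences were smaller than their SE, and none of the 10 genes had an unadjusted p under 0.05 for each sign. HOXA2, HOXB13 and HOXD10 show the range. Both HOXA2 probe sets were positive. Of the 4 HOXB13 probe sets, 3 were positive, by 0.037, 0.20 and 0.19, and 1 was negative, by -0.042. The second HOXD10 probe set read 4.04, 3.72 and 3.54 on the BMP9 arrays and 3.98, 3.93 and 4.11 on the control arrays, a difference of -0.24 where the brightest gave 0.078. The widest gap in level between probe sets of a gene was 3.06 on the log2 scale, for HOXC6. Of the 47 names, 6 end in _s_at and 3 in _x_at, marks of probes shared between transcripts or prone to cross-hybridise. Those values, the brightest of HOXB1, HOXB3, HOXD8, HOXD9 and HOXD13 among them, may hold signal of related genes.

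**Figure D4:**
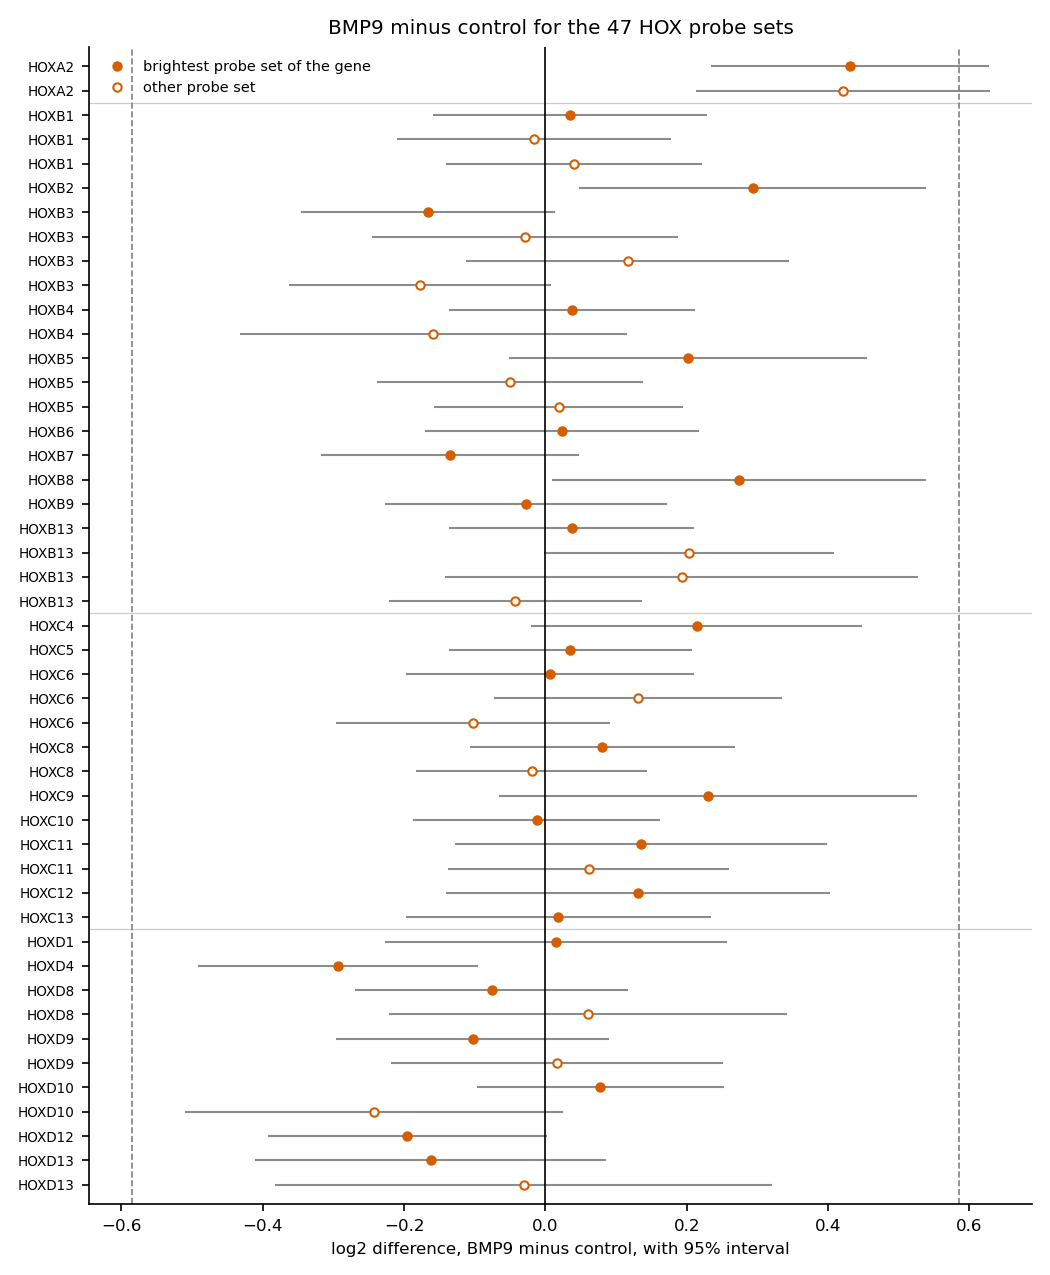
Log2 difference, BMP9 minus control (horizontal axis), with its 95% limma interval for each of the 47 HOX probe sets, listed by cluster and number and, within a gene, by level. Filled points are the brightest probe set of a gene, open points the others, and dashed lines mark a 1.5-fold change. Intervals reach past a dashed line for the HOXA2 probe sets alone.

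Among the DNA-binding partners of HOX proteins, MEIS1 was called lower and PBX3 higher with BMP9 in the fit over genes, with calls that depended on the fit. Of 8 PBX, MEIS and PREP genes measured, 1 was higher (0.232% of all genes), 1 lower (0.452% of all genes) and 6 not called, with a median difference of 0.067. MEIS1, a cofactor that stabilises HOX-PBX complexes on DNA, read 6.82, 6.54 and 6.67 on the BMP9 arrays and 7.27, 7.14 and 7.25 on the control arrays. It differed by -0.55 (SE 0.088, 1.46-fold lower, limma adjusted p = 0.0221), with no overlap between groups. Its second probe set also lay wholly lower, at 6.79, 6.71 and 6.48 on the BMP9 arrays against 7.05, 6.86 and 7.24 on the control arrays, a difference of -0.39 (limma adjusted p = 0.227). PBX3, a partner that contacts HOX proteins directly, read 6.06, 6.05 and 6.09 on the BMP9 arrays and 5.73, 5.65 and 5.64 on the control arrays. It differed by 0.39 (SE 0.070, 1.31-fold higher, limma adjusted p = 0.0385 over genes). Over all probe sets the same values missed the threshold (limma adjusted p = 0.0582). Its other 2 probe sets differed by 0.18 and 0.24 (limma adjusted p = 0.453 and 0.380), the second with overlapping groups. MEIS2 did not pass, at 8.74, 8.75 and 8.75 on the BMP9 arrays and 8.48, 8.56 and 8.39 on the control arrays, a difference of 0.27 (limma adjusted p = 0.168). MEIS2 passed in 5 of 16 alternatives: both control scalings, a minimum mean log2 value of 5 or of 7, and the intensity trend. All 5 MEIS2 probe sets were positive, between 0.16 and 0.35.

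Both cofactor calls were lost in some alternatives. MEIS1 had a difference of -0.013 (limma adjusted p = 0.937) with the poly-A scaling and an adjusted p of 0.0543 with the mean of its probe sets. It also missed the threshold without any of the 3 control arrays and without BMP9 replicate 2 or 3, at limma adjusted p-values from 0.0511 to 0.108, and passed without BMP9 replicate 1 at 0.0252. PBX3 missed it with the mean of its probe sets (0.0989) and without any 1 of the 6 arrays, at limma adjusted p-values from 0.0949 to 0.165.

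**Figure D5:**
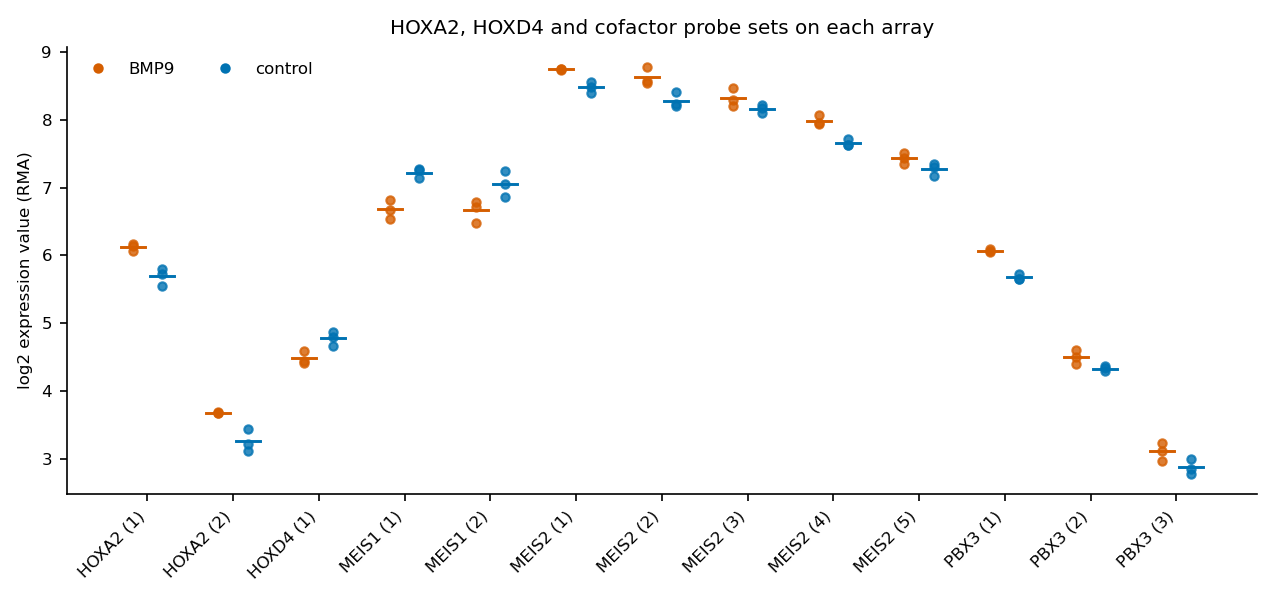
Log2 expression values (vertical axis) on single arrays, with group means as bars and BMP9 left of control, for the probe sets of HOXA2, HOXD4, MEIS1, MEIS2 and PBX3, numbered by level within a gene. The 2 MEIS1 probe sets sit lower on every BMP9 array, and the brightest PBX3 probe set sits higher on every BMP9 array.

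No calls were found among genes that act on HOX clusters, lie within or beside them, resemble HOX genes or are HOX targets. Across all genes 0.232% were called higher and 0.452% lower, and at these shares lists this short would seldom hold a call. Of 19 Polycomb genes measured, 0 passed in either direction, with a median difference of -0.019. PHC3 (0.25) and EED (-0.21) had the smallest p, and the H3K27 methyltransferase EZH2 differed by -0.045. A list of 15 trithorax, H3K27 demethylase and other genes, with EP300, CREBBP, DOT1L and PSIP1 among them, had 0 calls and a median of -0.075. In this list the acetyltransferase EP300 differed by -0.39 (limma adjusted p = 0.0977) and MEN1 by 0.29. Of 10 retinoic acid receptors, CDX genes and other HOX inducers 0 passed, with a median of 0.041, and RXRG (0.29) and RXRB (0.22) had the smallest p. HOXB-AS3, the 1 cluster antisense RNA of 17 listed that had a single-gene probe set used here, differed by -0.034. The 15 genes that flank the clusters had 0 calls and a median of 0.025. Closest was MTX2, a mitochondrial import gene beside the HOXD cluster, at -0.38 (limma adjusted p = 0.0555), which passed in 5 of 15 alternatives, the lowest at 0.00862, and was positive at 0.15 with the poly-A scaling. SKAP1 beside the HOXB cluster differed by 0.30. Of 15 HOX-like homeobox genes outside the clusters 0 passed (median -0.048, TLX3 at 0.17 and GSX1 at -0.14). Of 14 genes known as HOX targets in mesenchymal cells 0 passed (median 0.0020, EFNA1 at 0.24 and EPHA7 at -0.24).

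Markers were used to check the cell type. Of 15 stellate and mesenchymal markers, 10 lay above the olfactory 95th percentile, where 26.7% of all genes did. Under it lay TAGLN (5.44), DCN (4.27), THY1 (4.20), ACTA2 (3.97), a marker of activated stellate cells, and LUM (1.96). Of the 15, 1 was called lower with BMP9 (0.452% of all genes) and 0 higher. This was the fibrillar collagen gene COL3A1, at 6.44 ± 0.063 against 7.73 ± 0.057 in control (SD, n = 3 each, limma adjusted p = 2.35e-05). Its difference of -1.29 was -0.77 with the mean over probe sets and -0.76 with the poly-A scaling, and it passed in both. Above that percentile lay 1 of 9 hepatocyte, 4 of 9 endothelial, 1 of 8 macrophage and leukocyte and 0 of 5 cholangiocyte markers, and 0 of these were called. The smallest p-values in these 4 lists belonged to SERPINA1 (0.27) and ALB (-0.22), TEK (-0.16) and KDR (-0.15), PTPRC (0.19) and MARCO (-0.14), and EPCAM (0.34) and CFTR (0.10). Across the 18132 genes Pearson's r was 0.994 to 0.995 within BMP9, 0.993 to 0.994 within control and 0.991 to 0.993 between the groups. Across the 27 HOX genes it was 0.989 to 0.992 within BMP9, 0.988 to 0.996 within control and 0.983 to 0.991 between them, as a description over genes, which are not replicates.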

How the data were processed

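Total RNA of 6 LX-2 samples was labelled and put on Affymetrix 3′ arrays, per the labels' protocols. Each probe set has a log2 value that the authors computed with RMA, the robust multi-array average, according to the submitters' processing notes. RMA corrects background, equalises the arrays' quantiles and summarises probes, which largely removes any shift common to most transcripts. Its software, version and log base were not stated in the labels, and log2 was taken from the range of values. Arrays give no read depth, and their number limits the precision.

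Of 49395 probe sets, 102 were array controls, 1832 had several symbols, 2473 had none and 44988 had 1. A gene (18132 in all) was read by whichever of its single-symbol probe sets averaged highest over the 6 arrays, and all 44988 probe sets were also fitted. No filter was applied. Groups were compared with lmFit and eBayes of limma 3.58.1 in R 4.3.3, with Benjamini-Hochberg adjustment and a threshold of 0.05. Differences are BMP9 minus control. The fit was tested on simulated data with changes larger than any HOX difference here. The simulation does not show whether changes as small as the HOX differences would be called. All 27 HOX symbols matched the RefSeq gene table of assembly GRCh38.p14. At most 0.00405% of values were identical between 2 arrays.

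Values per array were given for HOX genes with an adjusted p under 0.05, and for up to 3 per cluster with the smallest p among those above the olfactory 95th percentile. From other lists the genes named were those called or otherwise the 2 with the smallest p, plus MEIS1, MEIS2, EZH2 and HOTAIR where measured, and 1 item is not reported here. Further genes are said to be named after their values were seen, or stand as single examples of a cluster. The members and the 13 gene lists were chosen with earlier results of these data known. Alternatives were the replicate block, quantile normalisation, median centring, the 2 control scalings, dropping genes whose mean log2 value is under 5 or under 7, averaging a gene's probe sets, leaving out names in _x_at, _s_at and _a_at (the last marks probes shared by transcripts of 1 gene) or only in _x_at and _s_at, an intensity trend with robust prior, and leaving out each array.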

Additional observations from a re-analysis of the deposited data

How the results depend on the processing

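Replicate numbers did not pair the samples: deviations of same-numbered arrays correlated at 0.0038, 0.046 and -0.021. With the replicate block, 27 genes were called higher against 42 without it, 0 of the other listed genes were higher against 1, PBX3 being lost (limma adjusted p = 0.0953), and the HOXA2 adjusted p was 0.114. HOX genes and probe sets called higher, 0 on the deposited scale, numbered 8 and 11 with the hybridisation control scaling and 26 and 44 with the poly-A scaling. They numbered 1 and 1 with a minimum of 5 and with the intensity trend, and 1 gene was called with the mean over probe sets, HOXA2 in each case. No alternative called a HOX gene or probe set lower. A minimum of 7 left 1 HOX gene, HOXC6, to test. The median HOX difference was 0.25 and 0.57 under the scalings.

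All genes called higher numbered 4843 (hybridisation), 16893 (poly-A), 102 and 97 (minimum of 5 and 7), 3 (no _x_at, _s_at or _a_at names, against 32 without only _x_at and _s_at) and 103 (intensity trend), and 17 to 24 with an array left out. Those called lower, 82 on the deposited scale, numbered 19 (poly-A), 165 and 150 (minimum of 5 and 7), 14 (no _x_at, _s_at or _a_at names, against 78 without only _x_at and _s_at) and 182 (intensity trend), and 37 to 54 with an array left out. Other listed genes called higher numbered 31 (hybridisation, where 26.7% of all genes were) and 128 (poly-A, where 93.2% of all genes were). They numbered 2 (minimum of 5), 0 (mean over probe sets), 0 (no _x_at, _s_at or _a_at names) and 2 (intensity trend), and 0 with any array left out. Those called lower, 2 before, numbered 1 (poly-A), 4 (minimum of 5), 0 (no _x_at, _s_at or _a_at names) and 4 (intensity trend), and 1 to 2 with an array left out.

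Signs turned as follows, and the cause was not tested beyond each setting's construction. With the hybridisation scaling the differences were 0.14 for HOXD8, 0.046 for HOXB3, 0.077 for HOXB7, 0.016 for HOXD12, 0.00042 for EED, 0.17 for EZH2, 0.075 for GSX1, 0.18 for HOXB-AS3, 0.057 for KDR, 0.073 for MARCO and 0.051 for TEK. With the poly-A scaling they were 0.46 for HOXD8, 0.37 for HOXB3, 0.40 for HOXB7, 0.24 for HOXD4, 0.34 for HOXD12, 0.31 for ALB, 0.32 for EED, 0.14 for EP300, 0.29 for EPHA7, 0.49 for EZH2, 0.40 for GSX1, 0.50 for HOXB-AS3, 0.38 for KDR, 0.39 for MARCO, 0.15 for MTX2 and 0.37 for TEK. With the mean over probe sets they were -0.060 for HOXB4, -0.082 for HOXD10, 0.020 for ALB, 0.046 for EZH2, 0.097 for KDR and -0.045 for PTPRC. Without _x_at, _s_at and _a_at names they were -0.24 for HOXD10 and -0.032 for PTPRC, and without only _x_at and _s_at names, an alternative chosen after seeing the data, 0.12 for HOXB3 and 0.18 for ALB. Median centring gave -0.0050 for HOXC6. With an array left out, differences ran from -0.041 to 0.090 for HOXB6, -0.052 to 0.084 for HOXC6, -0.048 to 0.086 for HOXC13, -0.14 to 0.043 for EZH2 and -0.093 to 0.067 for HOXB-AS3. The limits are 3 arrays a group, no detection calls and compressed differences for probe sets near background.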

Other observations

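A pair of probe sets carried the symbols of 2 HOX genes each and were left out of the members. The one shared by HOXD3 and HOXD4 read 3.56, 3.51 and 3.77 on the BMP9 arrays and 3.72, 3.82 and 3.51 on the control arrays, a difference of -0.068, and the groups overlapped. The one shared by HOXD10 and HOXD11 read 2.48, 2.48 and 2.50 on the BMP9 arrays and 2.32, 2.59 and 2.45 on the control arrays, a difference of 0.037 with overlapping groups.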
